A study of Mus musculus with 62 samples.

Results

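The genes described here encode the proteins of the cytosolic ribosome, and their mRNA counts were compared between stressed and unstressed mice in 2 brain regions, prefrontal cortex (PFC) and nucleus accumbens (NAc). They were chosen by symbol (Rpl or Rps followed by a number, with Rplp0, Rplp1, Rplp2, Rpsa and Fau, and without the S6 kinases), which gave 86 of the 11121 genes with counts. Of these, 42 encode proteins of the large subunit, 3 encode the ribosomal stalk and 32 encode proteins of the small subunit. The other 9 only match by name: the paralogs Rpl7l1, Rpl22l1, Rpl36al, Rps27l and Rps27rt, the Rps19-binding protein gene Rps19bp1, and Rpl10-ps3, Rpl13a-ps1 and Rpl9-ps6, whose names mark them as pseudogenes. The symbols of those last 3 were placed in this class after the genes had been seen. In the GENCODE annotation Rpl10-ps3 and Rpl9-ps6 are protein-coding (214 and 192 codons), and only Rpl13a-ps1 is a pseudogene. Rpl24 was not analysed here, and Rack1, a small subunit partner outside the name rule, is given with the other translation genes.

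All mice were wild-type C57BL/6j of 15 weeks. One group went through multimodal chronic restraint stress (mCRS), in which male mice were put into tubes each day under changing conditions, and the other stayed unstressed (CTR). BRB-seq, a 3′ counting method used here without molecular identifiers, gave 30 libraries from the PFC (15 per group) and 32 from the NAc (16 per group), from tissue taken 4 days after the last session. The study took both regions from its animals, but the labels do not say which libraries share a mouse.

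Ribosomal proteins assemble with ribosomal RNA into a small subunit, which reads the mRNA, and a large subunit, which joins the amino acids. Because each ribosome needs 1 copy of most of them, their genes are commonly expressed together, and in mammals many of their mRNAs begin with a stretch of C and T (a 5′ terminal oligopyrimidine tract) through which the mTOR pathway controls their translation. In neurons these mRNAs are also known from dendrites and axons.

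Promoter windows show a sequence feature that the name rule did not use and that some members have. RefSeq promoters of GRCm38.p6 were at hand for 63 members, and 33 of these (52.4%) held an unbroken run of at least 8 C or T bases lying within 25 bases of the annotated start. Among 27025 genes of the same table the share was 22.3%. The motif CTTTC, read on the gene's strand in the same windows, was found in 31.7% of the members against 7.87% of all genes, and CTTCC in 31.7% against 12.4%. GGAAG, searched on both strands before the start (its reverse complement is CTTCC), was in 82.5% and 66.9%. TATAAA, sought on the gene's strand from 45 to 16 bases before the start, was in 1 of the 63 members (1.59%), a name match, and in 2.57% of all genes. These matches describe letters and not bound sites. Below, 30 bases from 15 before to 15 after the start are shown for members the results turn on and, first, for 4 with a long run at the start. Capitals mark a run of C and T. The run of Rpl11 begins at base 14 from the start and goes past the window, and that of Rps15a ends before the start.
Fau (chr19:6057932-6057961, + strand): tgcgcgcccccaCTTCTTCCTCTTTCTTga
Rpl27a (chr7:109519180-109519209, + strand): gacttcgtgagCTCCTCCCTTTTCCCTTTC
Rpl7a (chr2:26910792-26910821, + strand): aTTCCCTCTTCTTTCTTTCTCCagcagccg
Rps6 (chr4:86857353-86857382, - strand): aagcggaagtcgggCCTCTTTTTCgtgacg
Rpl11 (chr4:136053379-136053408, - strand): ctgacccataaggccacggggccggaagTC
Rpl28 (chr7:4792950-4792979, + strand): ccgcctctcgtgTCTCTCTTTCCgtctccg
Rps9 (chr7:3704026-3704055, + strand): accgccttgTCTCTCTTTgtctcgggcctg
Rps15a (chr7:118116133-118116162, - strand): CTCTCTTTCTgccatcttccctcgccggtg
Rps3a1 (chr3:86142654-86142683, - strand): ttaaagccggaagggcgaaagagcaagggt
Rpl26 (chr11:68901551-68901580, + strand): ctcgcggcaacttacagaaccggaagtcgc
Rpl36a (chrX:134585639-134585668, + strand): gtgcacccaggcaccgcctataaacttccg
Rpl37 (chr15:5116598-5116627, + strand): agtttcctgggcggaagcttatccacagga
The last 4 windows hold no run of 8, and both kinds occur among the members whose counts differed most, as the counts below show.

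The members were short, and most shared some 3′ sequence with another gene. Their coding length had a median of 151 codons (n = 85, from 25 in Rpl41 to 419 in Rpl4), and that of all listed genes was 464 codons. Of the members 82 lay on autosomes and 4 on the X chromosome (Rpl10, Rpl36a, Rpl39 and Rps4x). In the GENCODE transcripts of GRCm38, 77 of the 86 shared at least 1 stretch of 70 bases, the length of a read, with another gene in their 3′ ends. The median member had 46.4% of such stretches copied elsewhere. Since the authors counted uniquely mapped reads, reads from those stretches could be lost, and the level of such a gene is uncertain. The 9 without a copy included Rpl4, Rpl12, Rpl23, Rpl27a, Rpl37 and Rps20 with Rpl7l1 and Rps19bp1. How many genes outside the members share such stretches was not counted.

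Library totals ran from 945286 to 4857359 counts, and 20733 to 134034 of them came from the 86 genes. In all 62 libraries 74 members had a count, 10 were at 0 in 1 or 2 libraries, and Rpl7l1 and Rpl36al were at 0 in 5 and 12. Summed over 8 striatal markers (Drd1, Drd2, Penk and others), 31 NAc libraries held 2590 to 7190 CPM (counts scaled to a common library total), but replicate 7 of the NAc CTR group held 474, inside the range of the PFC (191 to 1140). The same library had 2430 CPM of 3 hypothalamic genes, against at most 820 in the other NAc libraries. Its cortical marker sum was 40.6 CPM, below the PFC libraries (842 to 1890). Several of the counts, medians and shares that use it, but not all, are therefore also given without it. The series lists each group in 2 runs of numbers, whose meaning is not given, and these are used as a split. In bulk tissue, fewer cells of a type and less RNA per cell cannot be told apart.

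The first question was how much of each library went to ribosomal protein mRNA. In PFC CTR libraries the 86 genes took a median of 2.25% of all counts (from 1.96% to 3.16%), and in PFC mCRS libraries 2.84% (from 1.89% to 3.44%). The means were 2.39% ± 0.378 and 2.82% ± 0.523 (SD, n = 15 each). Thus 13 of 15 mCRS libraries lay above the CTR median and 6 above the highest CTR library, while 1 lay below the lowest. The ranges overlapped. In the NAc the means were 2.41% ± 0.282 for CTR and 2.52% ± 0.226 for mCRS (SD, n = 16 each), 13 of 16 mCRS libraries were above the CTR median, and 0 were above the highest CTR library. Without NAc CTR replicate 7 the CTR mean was 2.39% ± 0.281 (SD, n = 15). These shares are descriptions and carry no test.

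The small subunit made up more of the difference in the PFC than the large subunit. Its share went from 1.09% ± 0.197 in CTR to 1.34% ± 0.310 in mCRS libraries (SD, n = 15 each), 22.7% more, with 14 of 15 mCRS libraries above the CTR median. For the large subunit and stalk the shares were 1.25% ± 0.175 and 1.42% ± 0.205, 13.3% more, with 12 of 15 above. Counts of the large subunit were on average 1.15 ± 0.0768 times those of the small subunit in PFC CTR and 1.08 ± 0.133 times in PFC mCRS libraries. The medians went the other way, at 1.11 in CTR (1.06 to 1.28) and 1.13 in mCRS libraries (0.857 to 1.29). The lower mCRS mean is thus not a shift of most libraries. In the NAc the mean ratio was 1.22 ± 0.0833 in CTR (1.22 ± 0.0862 without CTR replicate 7) and 1.19 ± 0.105 in mCRS libraries. The plot of shares by library gives both subunits side by side.

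**Figure D1:**
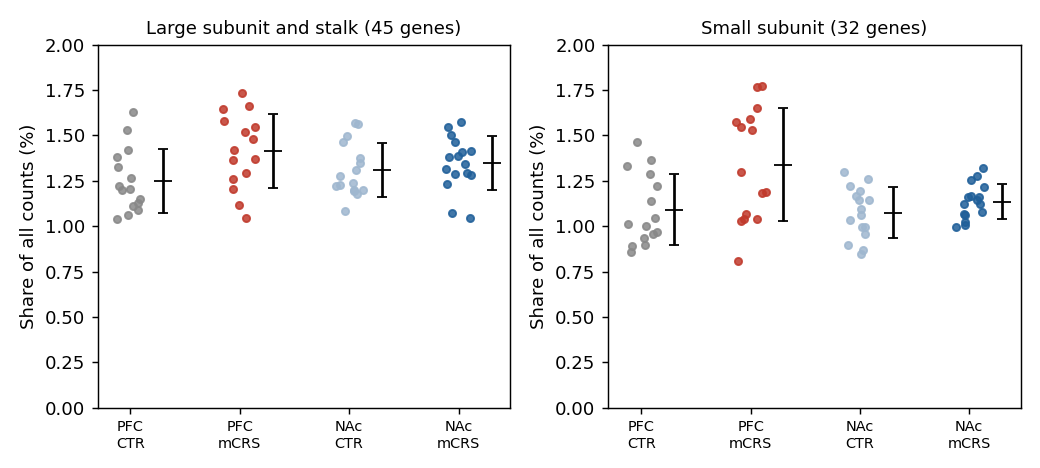
Share of all counts (%, y axis from 0) of the 45 large subunit and stalk genes (left) and the 32 small subunit genes (right) in each library of the 4 groups (x axis), with the mean and SD beside the points. In the PFC the mCRS points sit higher, with means of 1.42% against 1.25% on the left and 1.34% against 1.09% on the right. In the NAc the groups overlap over nearly their whole range.

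Other properties of the PFC libraries moved along with these shares. The PFC mCRS libraries held a count for 82.3% ± 6.22 of the listed genes and the CTR libraries for 87.1% ± 4.42 (SD, n = 15 each, two-sided permutation test with 100000 resamples, p = 0.022). With each PFC library thinned to 1094940 counts, the values were 80.1% ± 5.40 and 84.5% ± 4.03 (same permutation test, p = 0.0159). In the NAc, unthinned, they were 88.5% ± 7.43 for mCRS and 90.2% ± 7.13 for CTR (same permutation test, p = 0.501). Genes of the mitochondrial DNA took 8.86% to 18.2% of the counts in PFC CTR and 10.2% to 22.9% in PFC mCRS libraries. Outside these mitochondrial counts the ribosomal protein share was 2.75% ± 0.525 in PFC CTR and 3.39% ± 0.750 in PFC mCRS libraries. The 2 runs of numbers also differed: in the PFC the shares of CTR and mCRS libraries were 2.20% and 2.71% in the first run and 2.60% and 2.92% in the second. In the NAc they were 2.23% and 2.36%, then 2.60% and 2.67%. The part of these properties in the result was not tested beyond the fits given below.

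Gene by gene, edgeR's quasi-likelihood test called 0 of the 85 members tested in the PFC after mCRS at a Benjamini-Hochberg FDR below 0.05. Over all 8916 genes tested it also called 0 (0.0%), with 312 (3.5%) at an unadjusted p below 0.05. Fitted log2 fold changes (mCRS over CTR) nevertheless lay on 1 side: 72 of 85 members were above 0, with a median of 0.26, where 4397 of 8916 genes were above 0 with a median of -0.01. An unadjusted p below 0.05 with a higher value was found for 28 members (32.9%), where all genes gave 2.12%, and with a lower value for 1 member, where all genes gave 1.38%. Members varied less: their median SD in PFC CTR libraries was 0.59 (large) and 0.54 (small), against 1.56 log2 CPM over all genes tested. Within the PFC groups members also moved together, with median pairwise correlations of 0.21 to 0.37, against 0.005 and 0.02 over all genes. The 28 are thus not independent, and the 2 shares come from genes of unlike spread. The smallest FDR of a member was 0.475. DESeq2 gave 30 of 85 members at an unadjusted p below 0.05, and 439 of 8916 genes. Its own filter on mean counts kept 619 genes, 49 of them members, and then called 5 genes with 2 members, Rpl30 (adjusted p = 0.00882) and Rpl11 (adjusted p = 0.0389). Adjusted over all 8916 genes, DESeq2 called 0 of them.

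The small subunit genes had the larger fitted differences. Of 32, 28 were above 0, 16 had an unadjusted p below 0.05, and the median was 0.41. Of the 45 large subunit and stalk genes 37 were above 0, 11 had such a p on the higher side and 1 on the lower, and the median was 0.20. The difference between the subunits was not tested. In addition to the 8 members described next, the higher side included Rpl5, Rpl7, Rpl23a, Rpl31, Rpl35a, Rpl39 and Rplp1, then Rps3, Rps6, Rps7, Rps15a, Rps16, Rps20, Rps21, Rps23, Rps24, Rps27 and Rps29, and the paralog Rpl22l1.

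Rpl30 (ENSMUSG00000058600, chr15:34440505-34443640, - strand), a protein at the contact of both subunits, had a median of 8.06 log2 CPM in PFC CTR libraries (7.56 to 8.85) and 8.61 in mCRS libraries (8.03 to 9.41). In 14 of 15 mCRS libraries the value was above the CTR median, and the ranges overlapped. The log2 fold change was 0.68 ± 0.17 (SE; edgeR, p = 0.000266, FDR = 0.475). Rpl11 (ENSMUSG00000059291, chr4:136028265-136053428, - strand), which travels to the ribosome with Rpl5 and the 5S RNA and can bind Mdm2, went from 8.50 (7.46 to 9.35) to 9.26 (7.63 to 9.72). Its log2 fold change was 0.64 ± 0.18 (edgeR, p = 0.000844, FDR = 0.575), with 12 of 15 mCRS libraries above the CTR median. Both groups again overlapped for Rpl11.

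Rpl26, a protein near the exit of the peptide tunnel, had medians of 8.70 in CTR (7.68 to 10.04) and 9.29 in mCRS libraries (8.23 to 10.75), a log2 fold change of 0.71 ± 0.23 (edgeR, p = 0.00299, FDR = 0.854). X-linked Rpl36a had 7.47 (5.76 to 8.90) and 8.39 (7.42 to 9.37), with 14 of 15 mCRS libraries above the CTR median and a log2 fold change of 0.82 ± 0.27 (edgeR, p = 0.0031, FDR = 0.854). The CTR libraries of Rpl36a were more spread out than the mCRS libraries, and the groups overlapped for both genes.

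Among small subunit genes, Rps3a1 (ENSMUSG00000028081, chr3:86137940-86142702, - strand), at the side where mRNA leaves the subunit, had a median of 8.80 log2 CPM in CTR (8.14 to 9.68) and 9.65 in mCRS libraries (8.24 to 10.64). Of the mCRS libraries 7 of 15 were above every CTR library. The log2 fold change was 0.73 ± 0.20 (edgeR, p = 0.000754, FDR = 0.56). For Rps14, its neighbor on the subunit platform, the medians were 9.85 (9.19 to 10.64) and 10.55 (9.60 to 11.41), with a log2 fold change of 0.53 ± 0.17 (edgeR, p = 0.00209, FDR = 0.81). Both genes showed the same picture, with a higher mCRS median and overlapping ranges.

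Rps25, which some viral mRNAs need for translation, gave 7.70 (6.07 to 8.21) and 8.35 (6.66 to 9.15), a log2 fold change of 0.63 ± 0.21 (edgeR, p = 0.00442, FDR = 0.898), and 8 of 15 mCRS libraries exceeded the highest CTR library. Rps27a, made as a fusion with ubiquitin, gave 8.61 (7.71 to 10.02) and 9.40 (8.06 to 10.57), a log2 fold change of 0.69 ± 0.23 (edgeR, p = 0.00508, FDR = 0.898). The other small subunit gene made as a fusion, Fau, whose partner is a ubiquitin-like protein, had a log2 fold change of -0.11 ± 0.17 (edgeR, p = 0.522). Rpsa, also known as a laminin receptor, had 0.24 ± 0.16 (edgeR, p = 0.149).

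Rpl28 (ENSMUSG00000030432, chr7:4792874-4795066, + strand), a large subunit protein, stood on the other side. Its median was 7.39 log2 CPM in CTR (6.78 to 8.53) and 6.82 in mCRS libraries (5.51 to 7.80), and 7 of 15 mCRS libraries were below the lowest CTR library. The log2 fold change was -0.62 ± 0.24 (edgeR, p = 0.0142, FDR = 1.0). Other large subunit members on this side were Rpl13 (-0.20, p = 0.218), Rplp2 (-0.09, p = 0.613) and Rpl17 (-0.08, p = 0.621, edgeR for each). For the small subunit they included Rps2 (-0.22, p = 0.214), Fau and Rps9 (-0.003, p = 0.989, edgeR for each). None of these 6 passed the test.

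The stalk, which draws elongation factors to the ribosome, was uneven. Rplp1 had a median of 10.29 log2 CPM in PFC CTR (9.85 to 10.84) and 10.62 in PFC mCRS libraries (9.85 to 11.17), with a log2 fold change of 0.33 ± 0.12 (edgeR, p = 0.0101, FDR = 1.0). Rplp0, the base of the stalk, had 0.17 ± 0.20 (edgeR, p = 0.4) and Rplp2, the partner of Rplp1, had -0.09 ± 0.18 (edgeR, p = 0.613). No stalk gene passed the test.

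**Figure D2:**
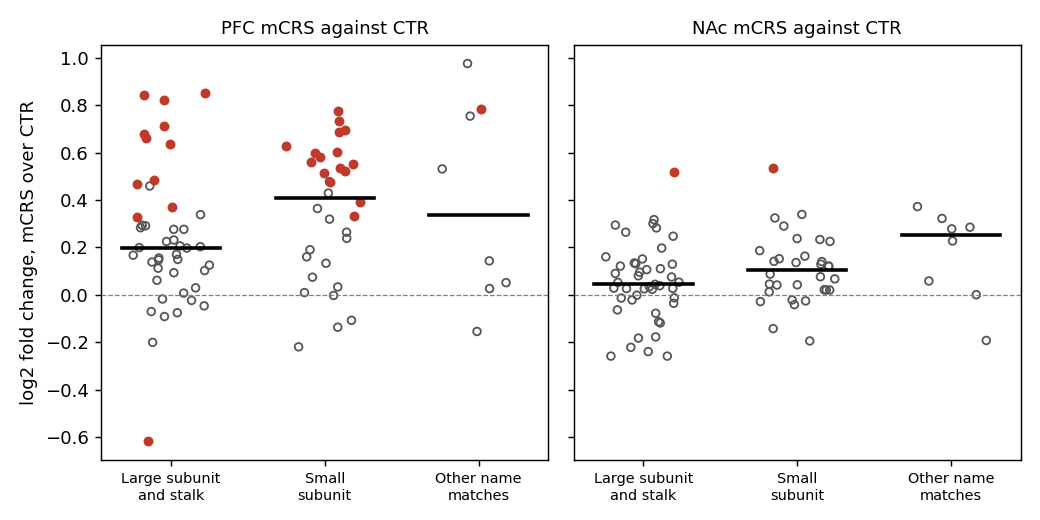
Fitted log2 fold change of mCRS over CTR (y axis) for each member in the PFC (left) and the NAc (right), by class on the x axis. Filled red points have an unadjusted p below 0.05 and bars are class medians, 0.20, 0.41 and 0.34 on the left, then 0.04, 0.10 and 0.25 on the right. No member had an FDR below 0.05.

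How many PFC members had a low p depended on what else the fit held. With detected genes (in percent) as a covariate, 4 of 85 members on the higher side had an unadjusted p below 0.05. Over all genes 184 of 8916 had such a p in either direction. The members' median log2 fold change was 0.17 (0.08 for the large and 0.19 for the small subunit). With log2 library size as a covariate there were 9 members and the median was 0.21, and with 1 surrogate variable 7 and 0.19. Of all 8916 genes, 214 and 192 had such a p in these 2 fits, in either direction. In the first run of numbers alone 21 members had such a p with a median of 0.28, and in the second 7 with a median of 0.22. Over all genes it was found for 346 of 9311 and 155 of 8700. Leaving out each of the 30 libraries in turn gave 23 to 31 members and medians from 0.207 to 0.305, with 275 to 363 such genes in all. The members' median kept its direction in each of these fits.

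In the NAc the same comparison was made on the other 32 libraries. Of 85 members, 0 were called at an FDR below 0.05, where edgeR called 1 of 10141 genes (0.00986%), the choroid plexus gene Ttr. DESeq2 also called 0 members. An unadjusted p below 0.05 was found by edgeR for 2 members, both higher (2.35%, against 0.986% of all genes, with 1.06% lower and 2.04% in all). By DESeq2 it was found for 4 of 85 members and 338 of 10141 genes. In the edgeR fit 63 of 85 members were above 0, with a median of 0.08 (0.04 for the large and 0.10 for the small subunit), against 4997 of 10141 genes with a median of -0.01. Rps29, a small zinc-binding protein, had a median of 6.99 log2 CPM in NAc CTR (5.32 to 8.20) and 7.53 in NAc mCRS libraries (6.24 to 8.45). Its log2 fold change was 0.53 ± 0.23 (edgeR, p = 0.0264, FDR = 1.0). Rpl37a, another zinc-binding protein, had 6.59 (4.99 to 7.46) and 6.95 (4.14 to 8.10), with 0.52 ± 0.25 (edgeR, p = 0.0404, FDR = 1.0). The groups overlapped for both.

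The next members of the NAc on the higher side were Rpl37 (0.30, p = 0.0672), Rpl7 (0.28, p = 0.0948), Rpl6 (0.32, p = 0.105), Rpsa (0.23, p = 0.0878), Rps20 (0.32, p = 0.116) and Rps7 (0.29, p = 0.123, edgeR for each). On the lower side they included Rplp2 (-0.22, p = 0.105), Rpl29 (-0.24, p = 0.298), Rpl28 (-0.18, p = 0.36) and Rpl27 (-0.26, p = 0.38, edgeR for each), and in the small subunit Rps6 (-0.20, p = 0.479) and Rps23 (-0.04, p = 0.782, edgeR for each). For Rplp2, 0 of 16 mCRS libraries were above the highest CTR library and 0 were above the CTR median. Without NAc CTR replicate 7 the members' median was 0.09 and 1 member had an unadjusted p below 0.05, Rps29 (0.57, p = 0.0201, edgeR), while Rpl37a had 0.47 (p = 0.0582, edgeR). Over all genes 218 of 10276 had such a p in that fit.

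Whether the response to mCRS differed between the regions was tested as an interaction over all 62 libraries. Of 86 members, edgeR called 0 at an FDR below 0.05, against 1 of 11025 genes (0.00907%), and DESeq2 called 0 members. At an unadjusted p below 0.05 there were 5 members by edgeR (5.81%, against 1.45% of all genes), each with the larger value in the PFC. By DESeq2 there were 8 of 86 members and 442 of 11025 genes. The 5 by edgeR were Rps14 (0.51 ± 0.20, p = 0.0132), Rps27a (0.70 ± 0.30, p = 0.0221), Rps6 (0.97 ± 0.43, p = 0.0255), Rps21 (0.52 ± 0.24, p = 0.031) and Rpl11 (0.56 ± 0.26, p = 0.0354), as differences of log2 fold changes with SE. The median over members was 0.22, and over all genes -0.02. On the opposite side the smallest p values belonged to Rps2 (-0.36 ± 0.21, p = 0.0941) and Rpl28 (-0.44 ± 0.31, p = 0.154). Without NAc CTR replicate 7 there were 6 members and 346 of 11020 genes at such a p, and the members' median was 0.18. Over all genes an unadjusted p below 0.05 was found for 3.09%, 1.64% on the side with the larger value in the NAc. Rps6, the target of the S6 kinases, had a median of 6.01 log2 CPM in PFC CTR (2.34 to 7.65) and 6.96 in PFC mCRS libraries (5.70 to 7.71), and 6.92 (3.71 to 7.75) and 6.71 (5.34 to 7.49) in the NAc.

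The regions of unstressed mice were compared next. Comparing PFC CTR with NAc CTR libraries, edgeR called 13 of 86 members higher in the PFC (15.1%) at an FDR below 0.05 and 1 lower. Over all 9932 genes tested, 4.23% were called higher and 2.09% lower, 6.32% in all. Here too members are not independent and varied less. In NAc CTR libraries their median SD was 0.48 (large) and 0.49 (small), against 1.575 log2 CPM over all genes tested. The members higher in the PFC were Rpl22l1, Rpl26, Rpl30, Rpl36a, Rpl37, Rpl39, Rpl41, Rps14, Rps15a, Rps20, Rps21, Rps27 and Rps29, and the lower member was Rps9. The median over members was 0.11 (log2, PFC over NAc) and that over all genes -0.02. It was 0.14 for the small subunit. For the large subunit it was 0.02, and it turned to -0.02 with RLE and -0.05 with upper-quartile normalization, which moved the median of all genes to -0.06 and -0.07. The direction of the large subunit median thus depends on the scaling.

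Rps29 (ENSMUSG00000034892, chr12:69157722-69159186, - strand) had a median of 8.50 log2 CPM in PFC CTR (6.99 to 9.44) and 6.99 in NAc CTR libraries (5.32 to 8.20). Of the PFC libraries 14 of 15 were above the NAc median and 8 were above every NAc library. The log2 fold change was 1.30 ± 0.23 (edgeR, FDR = 4.56e-05). Rpl39 (ENSMUSG00000079641, chrX:37082520-37085402, - strand), a very small protein that lines the peptide tunnel, had 6.84 (3.57 to 7.94) and 5.10 (2.69 to 6.51), with a log2 fold change of 1.46 ± 0.36 (edgeR, FDR = 0.00413). For both genes the lowest PFC libraries reached into the NAc range.

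Rpl37, a zinc-binding protein, had 8.70 (7.05 to 9.40) in PFC CTR and 7.68 (7.05 to 8.04) in NAc CTR libraries, and 10 of 15 PFC libraries exceeded the highest NAc library. Its log2 fold change was 0.96 ± 0.20 (edgeR, FDR = 0.000514). Rps15a had 7.82 (7.20 to 9.32) and 7.08 (6.06 to 7.93), with 15 of 15 PFC libraries above the NAc median and a log2 fold change of 0.93 ± 0.21 (edgeR, FDR = 0.00172). The ranges of both genes overlapped between the regions, and Rpl37 was far more even in the NAc than in the PFC.

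Rps21 gave 9.29 (8.48 to 10.04) and 8.68 (8.34 to 9.66), a log2 fold change of 0.65 ± 0.15 (edgeR, FDR = 0.00227). Rps14 gave 9.85 (9.19 to 10.64) and 9.40 (8.96 to 9.90), a log2 fold change of 0.54 ± 0.14 (edgeR, FDR = 0.00702). Rpl26 gave 8.70 and 8.27 (7.57 to 8.73), a log2 fold change of 0.69 ± 0.18 (edgeR, FDR = 0.00983). In each of these genes most PFC libraries, 13, 14 and 11 of 15, were above the NAc median. Rpl41, the shortest member, had 8.38 (8.02 to 9.02) and 7.84 (7.27 to 8.63), a log2 fold change of 0.56 ± 0.15 (edgeR, FDR = 0.0149), and all 15 PFC libraries were above the NAc median.

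Rps9 (ENSMUSG00000006333, chr7:3703993-3706897, + strand), which sits where mRNA enters the small subunit, was the 1 member called lower in the PFC. Its median was 8.29 log2 CPM in PFC CTR (6.58 to 8.78) and 8.96 in NAc CTR libraries (7.81 to 9.24), and 0 of 15 PFC libraries were above the NAc median. The log2 fold change was -0.61 ± 0.17 (edgeR, FDR = 0.018), and with detected genes as a covariate the call was lost (-0.48, FDR = 0.1). Others on this side did not pass the test with edgeR, among them Rpl7a (-0.48, FDR = 0.112), Rplp2 (-0.35, FDR = 0.221), Rpl18 (-0.57, FDR = 0.36), Rpl27a (-0.41, FDR = 0.531), Rps6 (-0.66, FDR = 0.344) and Rps16 (-0.39, FDR = 0.463). DESeq2 called Rpl7a lower as well.

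**Figure D3:**
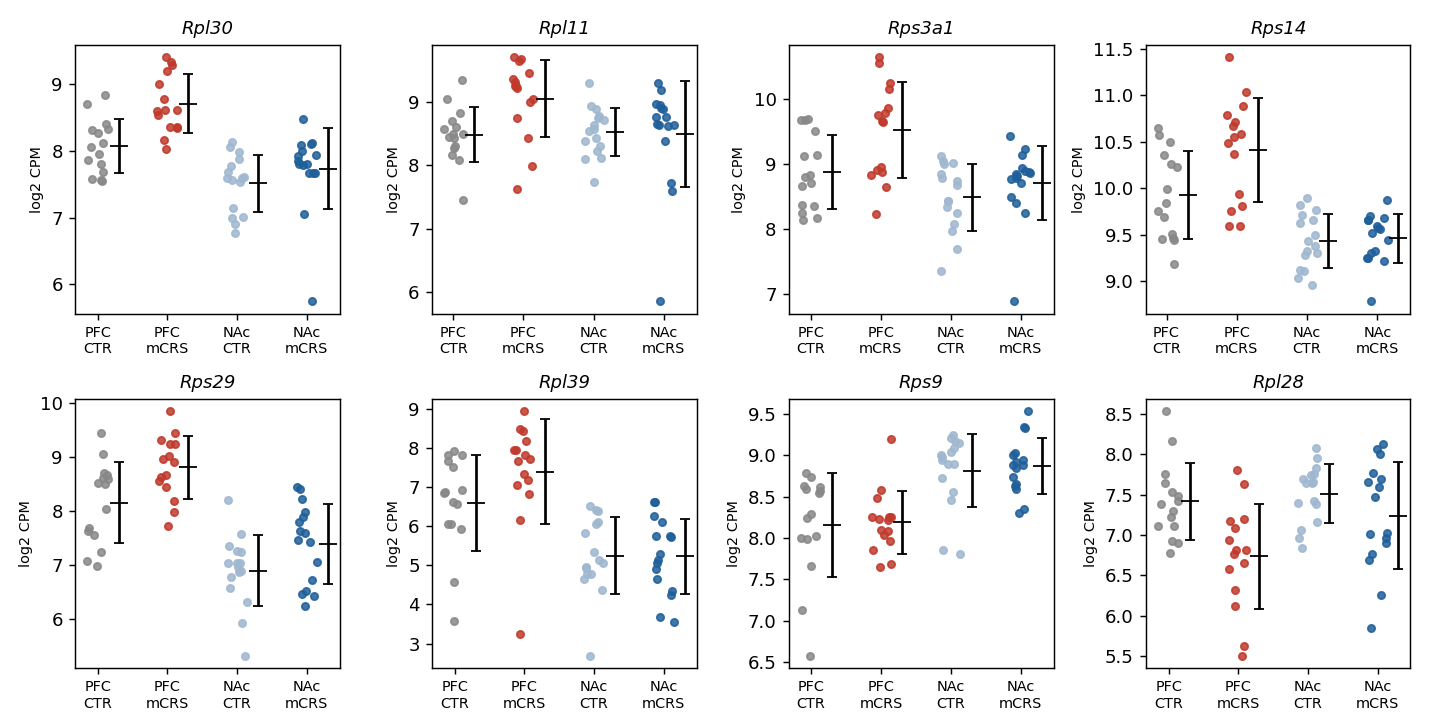
log2 CPM (y axis, a scale of its own in each panel) of 8 members in every library of the 4 groups (x axis), with the mean and SD beside the points. Rpl30, Rpl11, Rps3a1 and Rps14 have their highest medians in PFC mCRS libraries (8.61, 9.26, 9.65 and 10.55), Rps29 and Rpl39 are higher in both PFC groups, Rps9 is lower there, and Rpl28 has its lowest median in PFC mCRS libraries (6.82).

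The comparison of PFC mCRS with NAc mCRS libraries uses none of the CTR libraries. Here 24 of 85 members were called higher in the PFC (28.2%) and 1 lower, while 4.23% of 9452 genes were called higher, 2.07% lower and 6.31% in all. All 14 members called in CTR libraries were called in the same direction here, which is 56.0% of the 25. Over all genes, 371 were called in the same direction in both, which is 59.1% of the 628 CTR calls and 62.2% of the 596 mCRS calls. The median over members was 0.30 and that over all genes -0.03. It was 0.28 for the large and 0.28 for the small subunit.

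The largest fold change was again that of Rpl39, with a median of 7.73 log2 CPM in PFC mCRS (3.23 to 8.95) and 5.22 in NAc mCRS libraries (3.56 to 6.62), and 13 of 15 PFC libraries above every NAc library. The log2 fold change was 2.29 ± 0.34 (edgeR, FDR = 1.37e-06). The smallest FDR, 2.16e-07 by edgeR, was that of Rps14, at 10.55 (9.60 to 11.41) and 9.54 (8.78 to 9.87), with a log2 fold change of 1.04 ± 0.14. Rps29 had 1.36 ± 0.22 (edgeR, FDR = 4.14e-06) and Rps9 had -0.67 ± 0.16 (edgeR, FDR = 0.00265), with 12 of 15 PFC libraries below the lowest NAc library for Rps9. The 11 members called only in these libraries included Rpl5, Rpl7, Rpl22 and Rpl31 with Rps3a1, Rps4x, Rps7, Rps23, Rps25 and Rps27a. Of the 11, Rpl5, the partner of Rpl11, had 0.93 ± 0.18 (edgeR, FDR = 0.000246). Whether the regional difference itself changed with mCRS is the interaction given above, in which 0 members passed.

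**Figure D4:**
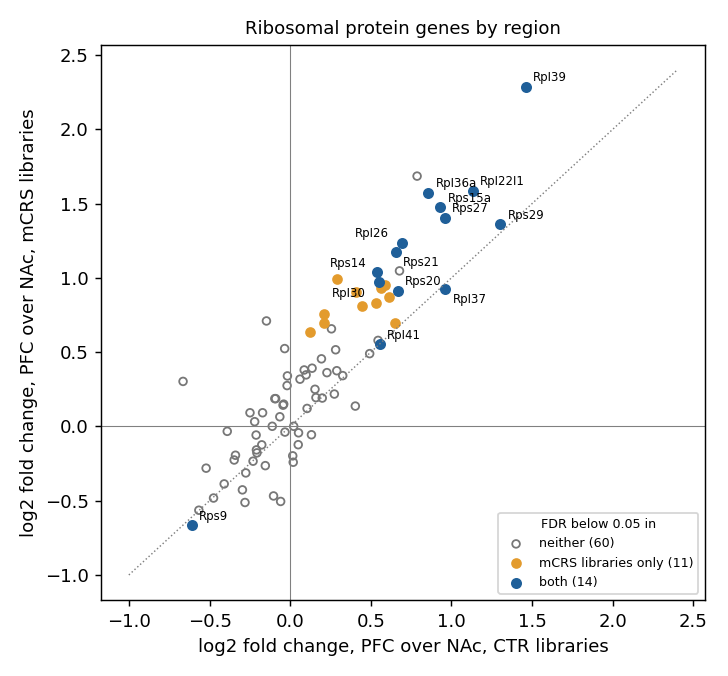
log2 fold change of PFC over NAc in mCRS libraries (y axis) against that in CTR libraries (x axis), which share no library, for the 85 members tested in both. Blue points were called in both (14), orange points in mCRS libraries only (11) and open points in neither (60), and the dotted line marks equal values. Most called members lie above the line, led by Rpl39 at 1.46 and 2.29.

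The tissue markers of the 2 regions differed as their labels say. In CTR libraries 8 of 8 striatal markers were called lower and 5 of 6 cortical excitatory markers higher in the PFC. Among markers of oligodendrocytes 5 of 8 were called lower in the PFC, with a median of -0.84, and 1 of 7 astrocyte and 0 of 8 microglia markers were called. The cell makeup of the regions thus differs along with the ribosomal protein genes, and its part in their difference was not tested. With detected genes as a covariate, 8 members were called higher in the PFC in CTR libraries and 15 in mCRS libraries. Of all genes 5.82% and 4.94% were called in these fits, in either direction. Without NAc CTR replicate 7, 11 members were called higher in CTR libraries, and 626 of 9845 genes (6.36%) in either direction. The calls lost without this library were those of Rpl30 (0.51, FDR = 0.0657, edgeR) and Rpl36a (0.84, FDR = 0.0507, edgeR).

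Short members had the higher values in the comparison of the regions. Among 77 subunit protein genes, the 9 with at most 100 codons had a median log2 fold change (PFC over NAc, CTR libraries) of 0.65. The 22 with over 200 codons had -0.07. In mCRS libraries the medians were 0.93 for the 9 short and 0.11 for the 22 long genes. Across the 77 genes, which share their libraries and are not independent, Spearman's rho of coding length and fold change was -0.40 in both comparisons. Over all genes tested rho was -0.12 and -0.13, and the 219 and 216 genes of at most 100 codons had medians of 0.26 and 0.40. For mCRS against CTR the medians of the short and the long genes were 0.48 and 0.17 for the PFC, then 0.24 and 0.04 for the NAc, with rho of -0.32 and -0.15. Over all genes rho was -0.12 and -0.09 there, and the short genes had medians of 0.18 and 0.05. Without NAc CTR replicate 7 the short and long members had medians of 0.75 and -0.06 between the regions (rho -0.40) and of 0.32 and 0.08 in the NAc (rho -0.13). Library fragments were selected by size before sequencing, and the part of transcript length in these differences was not tested.

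**Figure D5:**
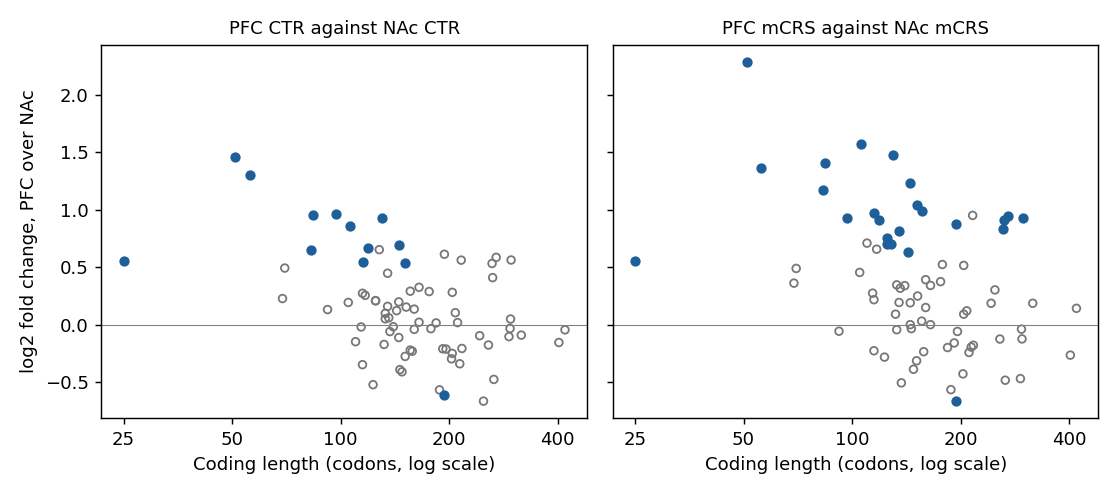
log2 fold change of PFC over NAc (y axis) against coding length in codons (x axis, log scale) for the 77 subunit protein genes, in CTR libraries (left) and mCRS libraries (right). Blue points have an FDR below 0.05. The short genes on the left of each panel are the higher ones, with medians of 0.65 and 0.93 at up to 100 codons and -0.07 and 0.11 above 200 codons.

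A run of C and T within 25 bases of the start, not always at it, was found in both the members that differed and the others. Of the members higher in the PFC after mCRS at an unadjusted p below 0.05, 19 had a promoter window and 11 of these held a run (57.9%), against 22 of 43 other members (51.2%). Among those called higher in the PFC than in the NAc, 4 of 9 held one in the CTR comparison (44.4%, against 53.7% of the others) and 7 of 17 in the mCRS comparison (41.2%, against 57.8%). These shares rest on few genes and were not tested.

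Of the genes that match only by name, 1 had a clear difference. Rpl22l1, a paralog that can take the place of Rpl22, had a median of 8.30 log2 CPM in PFC CTR (6.34 to 9.25) and 6.96 in NAc CTR libraries (2.20 to 7.90), a log2 fold change of 1.13 ± 0.29 (edgeR, FDR = 0.00601). In mCRS libraries the same difference was 1.59 ± 0.25 (edgeR, FDR = 3.76e-06), and 11 of 15 PFC libraries were above every NAc library. After mCRS its PFC value was 0.79 ± 0.27 (edgeR, p = 0.00524, FDR = 0.899) and its NAc value 0.32 ± 0.27 (edgeR, p = 0.239). Rpl22 itself was called only between the mCRS groups, at 0.70 ± 0.22 (edgeR, FDR = 0.038).

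The other 8 passed no test at an FDR below 0.05. In the PFC after mCRS they had log2 fold changes of 0.98 for Rps27rt (p = 0.208), 0.75 for Rps27l (p = 0.218), 0.53 for Rpl13a-ps1 (p = 0.448), 0.14 for Rpl9-ps6 (p = 0.833), 0.05 for Rpl7l1 (p = 0.951), 0.03 for Rps19bp1 (p = 0.963) and -0.16 for Rpl10-ps3 (p = 0.773, edgeR for each). Rps27rt has 90.5% of its 3′ stretches in common with other genes, so its counts are uncertain, as are those of Rpl5, Rps27a, Rps6, Rpl23a and Rpl36a. Rpl36al fell below the filter on low counts in all but the interaction and the CTR comparison of the regions, where its log2 fold change was 0.68 ± 0.87 (edgeR, FDR = 0.862).

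The genes that build, supply and control ribosomes were tested in the same fits. In the PFC after mCRS, 0 genes of 5 lists were called. Of 37 translation initiation genes 25 were above 0, with a median of 0.09, 2 at an unadjusted p below 0.05 on the higher and 1 on the lower side. The smallest p values were those of Eif3l, a subunit of initiation factor 3 (1.16 ± 0.40, p = 0.00546, edgeR), and Eif2b5 (-1.27 ± 0.63, p = 0.0469, edgeR). Of 14 elongation and termination genes 9 were above 0 with a median of 0.02, led by Eef1a2, the elongation factor of mature neurons (-0.26 ± 0.13, p = 0.0483, edgeR), and Eef1e1 (-0.62 ± 0.62, p = 0.323, edgeR). Of 48 ribosome biogenesis genes 29 were above 0 with a median of 0.10, led by Npm1, a nucleolar chaperone (0.63 ± 0.20, p = 0.00312, edgeR), and Noc2l (-1.32 ± 0.66, p = 0.0518, edgeR).

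Of the 14 mTOR genes tested 3 were above 0, with a median of -0.30. Ddit4, an inhibitor of mTOR that glucocorticoids induce, had 2.02 ± 0.73 (edgeR, p = 0.00771, FDR = 0.947), and Larp1, a protein that binds the C and T tract, had -0.75 ± 0.40 (edgeR, p = 0.0695). Rack1, a scaffold on the small subunit, had 0.04 ± 0.19 (edgeR, p = 0.817). In the NAc the medians of the initiation, elongation, biogenesis and mTOR lists were 0.004, -0.07, -0.02 and -0.07, and again 0 genes were called. The smallest p values there were those of Eif3h (0.39, p = 0.0675), Eif1ax (0.41, p = 0.102), Eef1d (0.79, p = 0.0384), Gspt2 (-0.82, p = 0.135), Gnl3 (0.87, p = 0.124), Ncl (-0.21, p = 0.127), Eif4ebp2 (-0.91, p = 0.0565) and Larp1 (-0.38, p = 0.0908, edgeR for each). For Rack1 in the NAc the log2 fold change was 0.09 ± 0.16 (edgeR, p = 0.558).

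After mCRS in the PFC, 0 genes were called in the lists of neurons, oligodendrocytes, astrocytes, microglia and endothelium. The summed level of 8 oligodendrocyte markers ran from 1730 to 6150 CPM in CTR and from 2600 to 7130 CPM in mCRS libraries, that of 8 microglia markers from 203 to 859 and from 381 to 857 CPM, and that of 6 cortical markers from 1010 to 1890 and from 842 to 1650 CPM. In these lists 0 genes were at 0 throughout a group, and those with an unadjusted p below 0.05 included Tac1 on the higher and Slc1a3 on the lower side. Their part in the result was not tested. In the NAc, 3 choroid plexus genes reached a sum of 23900 CPM in 1 mCRS library and at most 452 CPM in CTR libraries. With that library, replicate 10, left out, the NAc members had a median of 0.06 and 3 had an unadjusted p below 0.05. Over all genes it was 220 of 10298.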

How the data were processed

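BRB-seq counts of 62 libraries were re-analysed. Per the labels and the study's methods, the authors mapped reads with STAR to GRCm38 (mm10), counted uniquely mapped reads per gene with htseq (HTSeq 0.9.1 per the labels) and deposited the counts without normalization. How the 11121 genes were chosen is not given in the sources used here. Each comparison was fitted on all genes with edgeR 4.0.16 (R 4.3.3): TMM normalization, the default filter by group, the quasi-likelihood test and a Benjamini-Hochberg FDR below 0.05. Levels are log2 CPM with a prior count of 2 and 1 TMM scaling over all libraries. They were not divided by gene length, so levels of different genes are not compared. Ages, strain and groups come from the labels. Libraries were taken as independent, and p values measure the spread between them. Same-numbered libraries did not deviate together (r at most 0.0528, 0 pairs above 0.1). That highest r was between PFC CTR and PFC mCRS libraries, which come from different mice. Across the regions r was at most 0.025 (CTR) and 0.020 (mCRS). No libraries are known to share a mouse, so the r that a shared mouse gives is unknown. The check therefore cannot say whether numbers mark mice.

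Coordinates and coding lengths come from the GENCODE annotation of GRCm38 and promoter windows from RefSeq (GRCm38.p6). Copies were sought as identical stretches of 70 bases in the last 500 bases of each coding transcript. DESeq2 1.42.0, sva 3.50.0, other normalizations, filters, covariates and left-out libraries served as alternatives. Leaving NAc CTR replicate 7 out of the comparisons across regions, the shares and the length classes was chosen after seeing the data. The tests were tried on simulated counts. The members, the gene lists and the rule for named genes were chosen with earlier results of these data known. Named were, for each stress comparison and the CTR region comparison, the 4 large and 4 small subunit genes of smallest p in each direction, 2 per direction for the interaction, the stalk, Rpsa, Fau, Rps27a, the name matches, any member called after mCRS and the 2 smallest p in each translation list. Further members named from the counts and from the mCRS region comparison were chosen after their values were seen. Some genes that these rules take in are not reported here by name.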

Additional observations from a re-analysis of the deposited data

How the results depend on the processing

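In the PFC after mCRS, edgeR called 0 genes, and 1 without a filter on low counts, 5 with all 62 libraries in the fit, 5 by DESeq2 (2 of them members) and 0 to 2 with 1 library left out. Members on the higher side with an unadjusted p below 0.05 numbered 28, but 4 with detected genes as a covariate, 9 with library size, 7 with 1 surrogate variable, 7 in the second run of numbers and 23 (without PFC mCRS replicate 3) to 31 (without PFC CTR replicate 14) with 1 library left out. Over all genes such a p, in either direction, was found for 312, then 184, 214, 192, 155 and 275 to 363. In the NAc, 1 gene was called, 2 without a filter or with all libraries, and 0 by DESeq2, with detected genes, library size, run or a surrogate variable in the fit, or in the first run. NAc members with such a p numbered 2, 4 by DESeq2, 1 with all libraries, 1 in the second run and 0 to 3 with 1 library left out. Over all genes it was found for 207, then 338 by DESeq2, 179 with all libraries and 254 in the second run. For the interaction, 1 gene was called, 0 with a stricter filter and 2 after thinning, and 5 members had such a p, 9 under RLE and 8 by DESeq2. Over all genes 341 had it, 360 under RLE and 442 by DESeq2. Members called higher between the regions fell from 13 to 8 (CTR) and from 24 to 15 (mCRS) with detected genes as a covariate. With it 5.82% and 4.94% of all genes were called, in either direction. Outside mitochondrial counts the mCRS shares were 3.39% in the PFC and 2.82% in the NAc. The causes were not tested.

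Whether replicate numbers pair the libraries is not known. With the replicate number as a block, 1 gene was called in the PFC, 0 in the NAc and 0 for the interaction. Members with an unadjusted p below 0.05 then numbered 23, 1 and 8, and members called higher between the regions numbered 9 (CTR) and 19 (mCRS). Over all genes such a p was found for 415, 250 and 365, and 6.14% and 6.22% were called between the regions.

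Members near 0 changed sign. In the PFC, Rps9 came to 0.015 with RLE and with DESeq2, 0.076 with detected genes, 0.07 with library size, 0.006 with run, 0.014 with the replicate block, 0.089 with a surrogate variable, 0.043 after thinning, 0.107 in the first run and -0.107 to 0.039 without 1 library (above 0 in 15 fits). Rpl17 came to 0.049 in the first run. In the NAc, the second run gave -0.008 for Rpl6, -0.039 for Rps20 and 0.086 for Rpl28, and the first gave 0.044 for Rps23. Without 1 library Rps23 ran from -0.076 to 0.013. Low depth limits genes such as Rpl36al, at 0 in 12 libraries.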
